A study of Mus musculus with 36 samples.

Results

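The CpG clusters described here are stretches of the mouse genome whose methylation level differed between the series of the STATegra B3 time course. A cluster was a run of at least 20 listed CpG positions, each at most 100 bp from the next, and its level was the mean over the positions with a value in all 36 samples. Of 16391 autosomal clusters with such a value, 473 had a mean level in the 18 Ikaros samples that lay 5 percentage points or more from the mean of the 18 Control samples. They make up 2.89% of the autosomal clusters. The level was higher in Ikaros in 418 of them (2.55%) and lower in 55 (0.336%). The clusters were selected on this difference itself, so the differences, their sizes and their directions are given as a description and were not tested. The 473 clusters hold 25260 listed positions, of which 19978 had a value in every sample.

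B3 is a mouse pre-B cell line. The Ikaros cells carried a retroviral construct for Ikaros fused to the ERt2 domain together with GFP, and the Control cells carried the same vector with ERt2 and GFP but without Ikaros. Both were sorted on GFP and expanded. The study's methods describe no cloning step and do not say how many transductions a series comes from. The samples were taken 0, 2, 6, 12, 18 and 24 h after the addition of 0.5 µM 4-hydroxytamoxifen (4-OHT), which moves the fusion protein into the nucleus, with 3 replicates for each of the 12 conditions. The study's methods describe the 0 h cells as untreated, while the sample labels name 4-OHT at every time point. Replicates 1 and 3 were batches 1 and 4 of the labels, and replicate 2 was batch 2 at 0 h and batch 3 at the other times.

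Methylation was measured by reduced representation bisulfite sequencing (RRBS), which reads cytosines close to the cut sites of MspI. The levels are the smoothed levels of the authors, so neighbouring positions within a cluster are not independent. The number of reads behind a level is unknown. Among the marker genes of the B lineage, the promoter clusters of Pax5, Ebf1 and Vpreb1 had mean levels of 1.03%, 0.167% and 0.382% in Ikaros and of 0.938%, 0.243% and 0.293% in Control. The promoter cluster of Epcam, a gene of epithelial cells, had 97.5% and 97.8%, and that of Klf1, a gene of red cell precursors, had 1.37% and 1.58%. The other 16 marker genes had no promoter cluster. Averaged over the clusters described here, Control 24 h replicate 2 lay nearer to the Ikaros samples than any other Control sample did. Whether it is a mixed or mislabelled library was not tested. It was kept as labelled, so the Control means, SDs and ranges include it.

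In mammals, cytosines in CpG dinucleotides are methylated by the Dnmt enzymes. CpG-rich promoters are usually free of methylation, while CpGs inside gene bodies and between genes are usually methylated. A level between these ends is an average over alleles and cells of a sample, so a fully methylated part of the cells and partly methylated alleles in all cells cannot be told apart. Ikaros, the product of Ikzf1, is a zinc finger factor that acts with the NuRD complex and guides pre-B cells from proliferation to differentiation.

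To show the CG dinucleotides at clusters with large differences, the forward strand of GRCm38 (RefSeq) is printed for the 3 clusters with the largest increase, for 2 of those with the largest decrease and for a promoter cluster that was lower. Capitals mark the CG dinucleotides listed in the deposited tables on at least 1 strand. The window was at most 300 bp of the cluster, chosen to hold the position with the largest difference, and UTR sequence was left out of it, so the stretches can be shorter than the clusters. First come the clusters that were higher in Ikaros.
Ephb6, chr6:41605257-41605481: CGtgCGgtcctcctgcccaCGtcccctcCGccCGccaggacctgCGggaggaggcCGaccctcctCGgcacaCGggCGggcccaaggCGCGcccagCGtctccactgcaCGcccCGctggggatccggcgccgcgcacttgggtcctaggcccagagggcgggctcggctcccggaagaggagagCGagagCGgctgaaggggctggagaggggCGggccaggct
Mllt3, chr4:88031803-88032059: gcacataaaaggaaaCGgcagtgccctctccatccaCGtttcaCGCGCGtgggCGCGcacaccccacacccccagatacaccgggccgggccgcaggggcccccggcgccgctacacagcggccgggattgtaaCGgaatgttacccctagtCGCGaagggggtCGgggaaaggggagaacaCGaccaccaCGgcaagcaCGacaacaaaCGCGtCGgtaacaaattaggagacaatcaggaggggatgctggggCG
Nol4l, chr2:153443693-153443992: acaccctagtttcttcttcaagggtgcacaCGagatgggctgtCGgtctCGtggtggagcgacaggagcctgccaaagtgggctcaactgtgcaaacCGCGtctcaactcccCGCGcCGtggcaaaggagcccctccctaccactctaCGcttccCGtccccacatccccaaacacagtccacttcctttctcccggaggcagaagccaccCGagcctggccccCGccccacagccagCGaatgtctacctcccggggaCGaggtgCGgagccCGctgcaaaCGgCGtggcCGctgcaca
The next 3 were lower in Ikaros.
Tbx3, chr5:119687023-119687322: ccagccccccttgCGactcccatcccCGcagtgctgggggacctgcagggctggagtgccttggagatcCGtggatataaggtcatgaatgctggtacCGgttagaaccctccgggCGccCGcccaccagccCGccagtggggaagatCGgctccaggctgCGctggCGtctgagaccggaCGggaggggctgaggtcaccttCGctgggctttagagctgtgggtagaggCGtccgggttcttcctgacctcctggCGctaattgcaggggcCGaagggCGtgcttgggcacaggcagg
Gfra2, chr14:70888640-70888884: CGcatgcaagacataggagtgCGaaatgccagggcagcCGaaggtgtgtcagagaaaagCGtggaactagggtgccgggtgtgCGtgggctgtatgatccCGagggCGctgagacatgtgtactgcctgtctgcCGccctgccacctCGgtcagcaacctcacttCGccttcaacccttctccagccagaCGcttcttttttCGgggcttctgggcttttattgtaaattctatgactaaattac
Rxra, chr2:27676516-27676772: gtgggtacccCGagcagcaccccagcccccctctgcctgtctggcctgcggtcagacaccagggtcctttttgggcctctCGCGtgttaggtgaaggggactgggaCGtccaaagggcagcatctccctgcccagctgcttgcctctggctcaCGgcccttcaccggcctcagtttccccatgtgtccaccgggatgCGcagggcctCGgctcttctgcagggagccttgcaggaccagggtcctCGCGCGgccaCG

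The windows of the higher clusters hold 25 (Ephb6), 26 (Mllt3) and 22 (Nol4l) CG dinucleotides, and those of the lower ones 19 (Tbx3), 13 (Gfra2) and 14 (Rxra). None of these windows holds the Ikaros core motif TGGGAA on either strand. Among all members, the motif was in the 300 bp around the centre of 83 clusters (17.5%), 71 of the higher (17.0%) and 12 of the lower (21.8%). It was in 15.9% of all autosomal clusters searched the same way, and in 18.6% of those with a mean level of 10% to 90%. A match is a description of the sequence and not a binding site.

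The largest difference was at Ephb6, which encodes a kinase-deficient Eph receptor. The cluster at chr6:41605257-41605789 overlaps the transcription start, and its midpoint lies in the UTR. Its level in the Ikaros samples was 66.4% at the lowest, 74.4% in the median and 81.2% at the highest. The Control samples had 25.2%, 41.9% and 71.0%. A single Control sample, 24 h replicate 2, gave the 71.0%, and the next highest had 50.5%, so all other Control samples lay below every Ikaros sample. The means were 74.1% ± 4.39 (SD, n = 18) and 41.7% ± 9.44 (SD, n = 18), a difference of 32.4 points. All of the 58 positions with complete values were shifted by at least 5 points.

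Mllt3 encodes AF9, a subunit of the super elongation complex. Its cluster lies in an intron, 754 bp downstream of a start (chr4:88031803-88032059). Ikaros samples had 61.8%, 69.7% and 77.9% (lowest, median and highest) and Control samples 27.1%, 33.8% and 74.97%. The means of 69.2% ± 4.96 (SD, n = 18) and 37.3% ± 13.5 (SD, n = 18) differed by 31.9 points. Control 0 h replicate 1 (74.97%) and Control 24 h replicate 2 (72.3%) had levels inside the Ikaros range, while the other 16 Control samples were at 37.4% or below.

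At Nol4l the cluster lies in an intron 274 bp downstream of a start (chr2:153443595-153444205). The Ikaros samples had 29.5%, 37.4% and 63.7% and the Control samples 4.91%, 8.98% and 28.8%. Here the series did not overlap. The highest Control value was again that of 24 h replicate 2, and the next was 11.7%. The difference of the means, 38.6% ± 7.87 (SD, n = 18) and 9.73% ± 5.20 (SD, n = 18), was 28.9 points.

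The other 5 of the 8 largest increases were in or near Zfp608, Zfp36, Tnrc18, Trim29 and Plekhh1. The cluster in a coding exon of Zfp608 (chr18:54987739-54987993) had 40.3% ± 6.73 (SD, n = 18) in Ikaros and 14.3% ± 4.43 (SD, n = 18) in Control. The intergenic cluster 2614 bp downstream of the start of Zfp36, which encodes the RNA-binding protein tristetraprolin, had 34.4% ± 4.34 and 9.31% ± 7.37 (chr7:28376448-28376641). Only 6 Ikaros samples there exceeded the highest Control sample, which was 24 h replicate 2 at 36.9%, the next highest being at 13.5%. The intronic cluster of Tnrc18 (chr5:142814012-142814564) had 87.9% ± 2.76 and 63.3% ± 8.80. Trim29 was the nearest protein-coding gene, 23798 bp away, of an intergenic cluster with 63.4% ± 7.66 and 39.6% ± 6.85 (chr9:43286721-43287050). The cluster over the start of Plekhh1 (chr12:79029071-79029398) had 80.7% ± 8.95 and 58.4% ± 9.60, and 12 of the 18 Ikaros samples were above the highest Control sample.

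**Figure D1:**
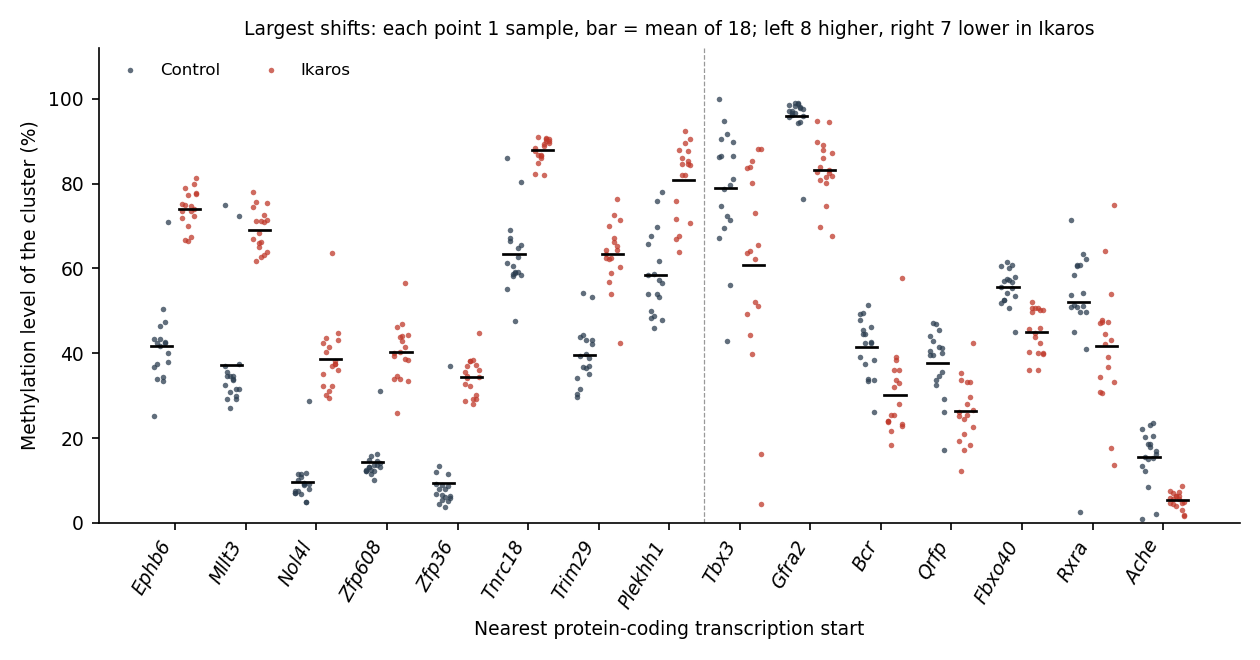
Methylation level (%) of the 8 clusters with the largest increase and 7 of the 8 with the largest decrease in Ikaros, named by the nearest protein-coding transcription start. Each point is 1 of 36 samples, spread within a series by time point, and the bar is the mean of 18. At Ephb6, Nol4l, Zfp608 and Zfp36 a single Control sample lies far above the other Control samples, and at Tbx3 and Rxra the series overlap over most of their range.

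The largest decrease was in an intron of the non-coding gene Tbx3os2, 6732 bp from the start of Tbx3, a T-box factor of limb and heart development (chr5:119686981-119687327). The Ikaros samples had 4.57%, 63.9% and 88.2% and the Control samples 42.9%, 80.4% and 100%. The means of 60.8% ± 24.1 (SD, n = 18) and 78.9% ± 14.2 (SD, n = 18) differed by −18.1 points, which is less than the SD of the Ikaros samples. The lowest Ikaros values were those of 24 h replicate 2 (4.57%) and 24 h replicate 1 (16.2%), and only 15 of the 34 positions had complete values. From 0 to 24 h the difference was −18.96, −19.8, −12.7, −6.54, −0.845 and −49.5 points. When 1 sample of the time point was left out, it could change sign at 6, 12 and 18 h, and at 24 h it was between −75.4 and −33.6 points.

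Upstream of Gfra2, the gene of the neurturin receptor, a cluster 1236 bp from the start (chr14:70888640-70888884) had 83.2% ± 7.28 in Ikaros and 95.9% ± 5.11 in Control, and the lowest Control sample, 24 h replicate 2, had 76.3% against 94.3% in the next. In a coding exon of Bcr (chr10:75062036-75062203), the means were 30.2% ± 9.31 and 41.6% ± 6.73. A coding exon of Qrfp, the gene of a neuropeptide (chr2:31808513-31808831), had 26.4% ± 7.45 and 37.6% ± 7.81. Near the start of Fbxo40, which encodes an F-box protein of muscle (chr16:36990008-36990405), the means were 44.9% ± 5.36 and 55.6% ± 4.17, and 9 Ikaros samples lay below the lowest Control sample.

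The retinoid X receptor gene Rxra had a cluster 26 bp from a start (chr2:27676466-27676772) with 41.6% ± 14.7 and 52.1% ± 14.4. It rests on 5 positions with complete values of 23, and its range in Control went from 2.48% in 12 h replicate 3 to 71.4%. At the start of Ache, the acetylcholinesterase gene (chr5:137287993-137288244), the level was low in both, with 5.38% ± 1.91 in Ikaros and 15.6% ± 6.42 in Control. A low level was also found 630 bp upstream of a start of the zinc transporter gene Slc30a3, with 9.96% ± 2.71 and 18.4% ± 5.25 (chr5:31095431-31095736).

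Most members lay near the threshold rather than near these extremes. The median size of the difference was 7.62 points among the higher and −6.55 points among the lower members, and 133 members differed by less than 6 points. A difference of 10 points or more was found in 119 clusters, 111 higher and 8 lower, which is 0.726% of all autosomal clusters, and all 13 clusters with 20 points or more were higher in Ikaros. The difference exceeded the SDs of both series in 272 members, 254 of the higher (60.8%) and 18 of the lower (32.7%), and in 4.91% of all autosomal clusters. Just inside the threshold were the clusters at Ltbp4 (5.01 points, chr7:27334420-27334861) and Fam210b (5.01 points, chr2:172345531-172346226) on the higher side, and those at Ninl (−5.05 points, chr2:151008896-151009339) and 71747 bp upstream of Foxo1 (−5.05 points, chr3:52196169-52196589) on the lower side. In the last, Control 0 h replicate 1 had 44.0% and the next highest Control sample 7.42%, and without that sample the difference was −2.88 points. Ninl also fell under the threshold without it (−4.07 points). Of 53 named members, 10 were under 5 points when 1 sample or another was left out. Just outside were the clusters at Rtn4rl2 and St6galnac6 (both 4.99 points), Rnf185 (−4.98 points) and Dgkq (−4.95 points).

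Complete separation of the series was rare. In 8 of the 16391 clusters (0.0488%) every Ikaros sample was above every Control sample, and 7 of these were members. These 7 were looked up after their values had been seen. Besides Nol4l they are Id3, Camk4, Tspear, Rasd1, Plekhg3 and Lrrc73. The cluster over Id3, an inhibitor of E-protein transcription factors in lymphocytes, had a lowest Ikaros sample of 27.5% and a highest Control sample of 26.7% (chr4:136143719-136144272, difference 8.16 points). The gap was also narrow at Camk4, a calcium/calmodulin-dependent kinase gene, with 53.5% and 53.2%. No cluster had every Ikaros sample below every Control sample (0%). Without Control 0 h replicate 1 and Control 24 h replicate 2 (a choice of samples made with the values known) the series did not overlap in 41 clusters with Ikaros higher (0.25%), 35 of them members, and in 5 with Ikaros lower (0.0305%), 1 of them a member.

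**Figure D2:**
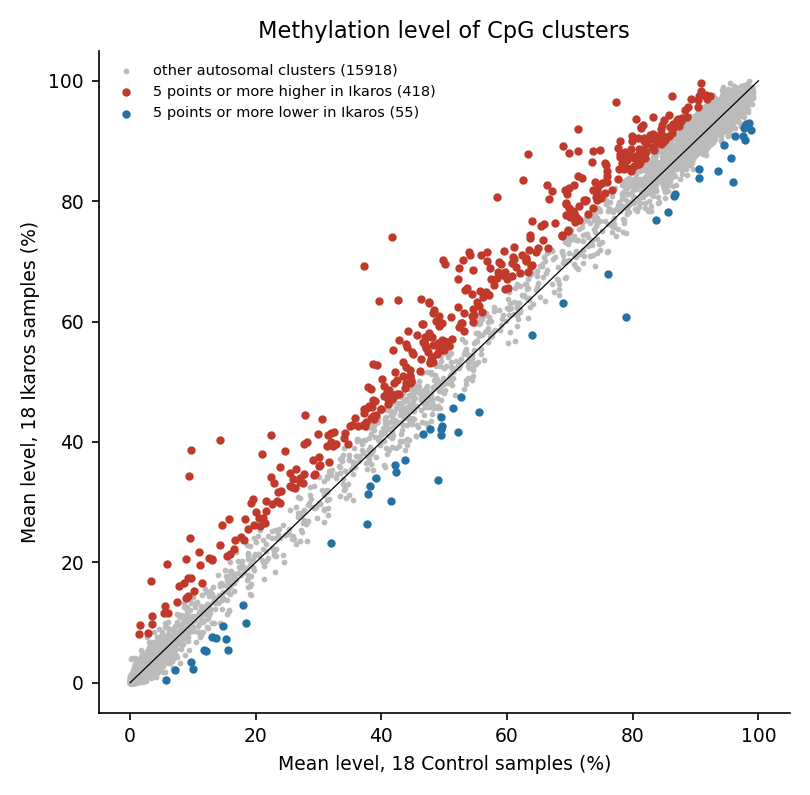
Mean methylation level of each autosomal CpG cluster in the 18 Control samples (x, %) and the 18 Ikaros samples (y, %), with the line of equal levels. The 418 higher and 55 lower members are coloured, and most lie between the ends of the scale, where there are few other clusters.

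These Control samples stood apart from their series in the members. Averaged over the 418 higher members, the Ikaros samples had 61.8% ± 0.894 (SD, n = 18; 60.5% to 64.2%) and the Control samples 53.0% ± 1.61 (SD, n = 18; 49.6% to 56.2%). Control 24 h replicate 2 was the highest Control sample, at 56.2% against 54.6% in the next. Averaged over the 55 lower members, it was the lowest, at 48.1% against 52.8%, inside the Ikaros range of 44.0% to 50.9%. In both directions it lay on the Ikaros side of the other Control samples. The largest increases and the largest decreases, taken separately, gave 16 clusters. In 10 of these, Control 24 h replicate 2 was the Control sample farthest towards Ikaros. Control 0 h replicate 1 was the lowest Control sample over the higher members (49.6%) and the highest over the lower members (62.6%). It also had the most empty values, 12.98% of the listed positions in members, where the other Control samples had at most 5.72%. Ikaros 24 h replicate 2 was the highest Ikaros sample over the higher members (64.2%) and the lowest over the lower members (44.0%), with 3.67% of values empty and 59.1% of all its levels at exactly 0 or 1, against at most 45.0% in the other Ikaros samples. The part of these properties in the differences was not tested.

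**Figure D3:**
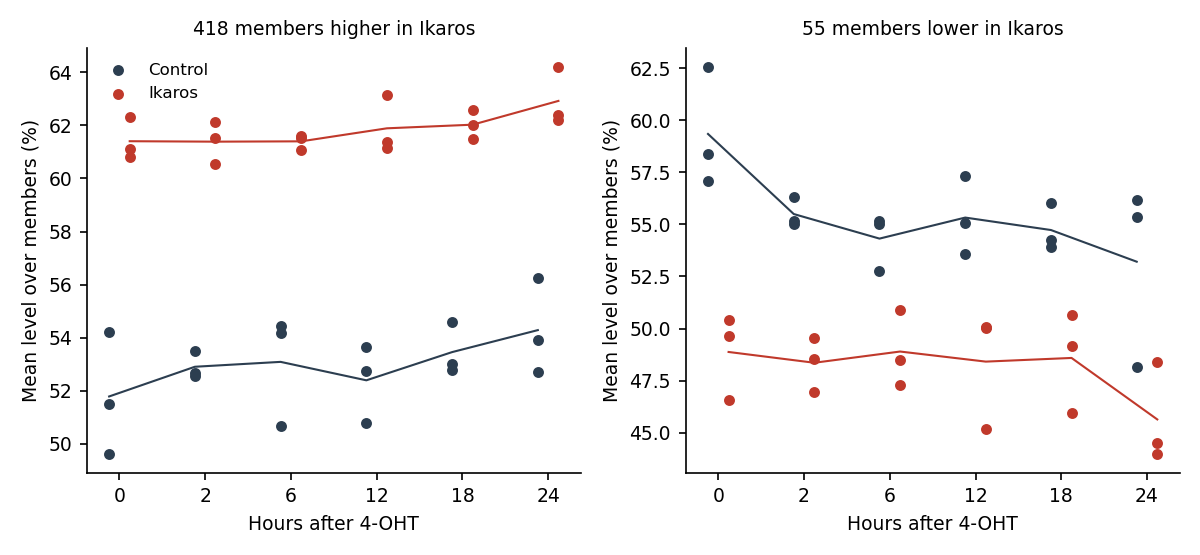
Mean level (%) over the 418 higher members (left) and the 55 lower members (right) in each of the 36 samples by hours after 4-OHT, with lines through the means of the 3 replicates. The vertical axes do not start at 0. Control 24 h replicate 2 lies nearest to Ikaros among the Control samples in both panels, and Control 0 h replicate 1 is farthest from it on the right.

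The number of lower members moved by less than 1.5 times without these samples. Leaving out Control 24 h replicate 2 gave 425 higher and 74 lower members, leaving out Control 0 h replicate 1 gave 418 and 51, and leaving out both gave 416 and 66. Each batch held samples of both series. Within batch 1 the median difference was 7.78 points over the higher and −8.08 over the lower members, and within batch 4 it was 8.41 and −8.16 points, each from 6 samples per series. Batch 3, with 5 samples per series, gave 7.13 and −4.12 points, and batch 2, with 1 sample per series, gave 6.45 and −5.93 points. The direction was that of the full set in 409 of the higher and 54 of the lower members in batch 1, in 324 and 41 in batch 2, in 398 and 44 in batch 3 and in 415 and 50 in batch 4. Over all autosomal clusters it was so in 74.4%, 56.3%, 70.6% and 74.4%. The samples of each batch also chose the members, so these counts are a description.

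The members were largely clusters of intermediate methylation. Clusters with a mean level between 10% and 90% over the 36 samples are 1839 of the 16391, and 429 of the 473 members were among them. By level class, members were 14 of 7977 clusters under 10% (0.176%), 171 of 684 between 10% and 50% (25%), 258 of 1155 between 50% and 90% (22.3%) and 30 of 6575 over 90% (0.456%). The higher members were mostly in the class of 50% to 90%, with 244 of 418, while of the 55 lower members 25 were in that of 10% to 50%, 14 in that of 50% to 90%, 10 over 90% and 6 under 10%. The median SD of the Ikaros samples was 4.55 points in the clusters of intermediate level and 1.06 points over all autosomal clusters. The median difference over all clusters of intermediate level, members or not, was 1.55 points, and over all autosomal clusters it was 0.0362 points.

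**Figure D4:**
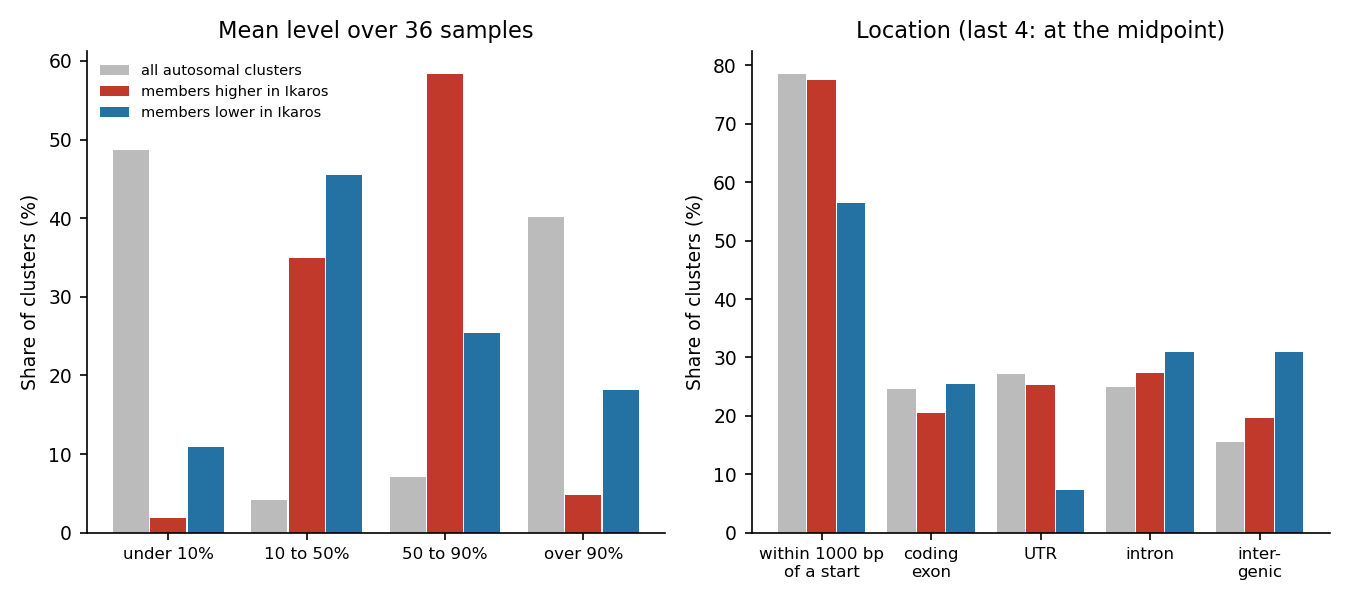
Share (%) of all 16391 autosomal clusters, of the 418 higher and of the 55 lower members in each class of mean level (left) and by location (right). The bars for coding exon, UTR, intron and intergenic give where the midpoint lies. Intermediate levels prevail among the members, and 56.4% of the lower members lie within 1000 bp of a protein-coding start, against 78.6% of all clusters and 65.0% of those of intermediate level (not tested).

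By the GENCODE M21 annotation, 355 of the 473 members (75.1%) lay within 1000 bp of the transcription start of a protein-coding gene, compared with 78.6% of all autosomal clusters and 65.0% of the clusters of intermediate level. This was so for 324 of the higher (77.5%) and 31 of the lower members (56.4%). Of these 355 clusters, 200 overlapped a start, 49 lay upstream and 106 downstream. The start itself was overlapped by 190 of the 324 higher and by 10 of the 31 lower ones, and by 8662 of all 12877 such clusters. The midpoint of a member was in an intron in 131 cases (27.7%, compared with 24.9% of all autosomal clusters), in a UTR in 110 (23.3% and 27.2%), in a coding exon in 100 (21.1% and 24.7%) and between genes in 99 (20.9% and 15.5%). UTRs held the midpoint of 106 higher members (25.4%) and of 4 lower ones (7.27%), compared with 27.2% of all clusters. Over 10000 bp from the nearest protein-coding start were 57 members (12.1%), compared with 9.98% of all autosomal clusters and 18.98% of those of intermediate level. These shares were not tested.

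The median GC content was 67.4% in the higher and 65.03% in the lower members, compared with 67.5% in all autosomal clusters and 64.99% in those of intermediate level. The median ratio of observed to expected CpG was 0.808 and 0.732, compared with 0.851 and 0.747. The lower members were shorter and had more gaps, with a median length of 308 bp against 387 bp in the higher members and a median of 60.9% of positions with complete values against 86.7%. A cluster mean of few positions is less certain, and 19 members had under 5 complete positions, 2 of them a single one. The rule used the mean of the same smoothed positions, so how far the shift extended within a member is a description. In the median 77.4% of the complete positions of a member differed by at least 5 points in its own direction. Every position did in 129 members (0.787% of all autosomal clusters), and under 50% of the positions did in 70 members (14.8%), compared with 97.0% of all autosomal clusters and 75.97% of those of intermediate level. At the same time 66 members (14.0%), 65 of them higher, spanned over 50 points in mean level between their own positions, compared with 2.70% of all autosomal clusters and 18.98% of those of intermediate level.

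The 473 members were spread over all 19 autosomes, from 1.82% of the clusters on chromosome 12 to 3.97% on chromosome 15. On the X chromosome, which the rule left out, 5 clusters of 333 were higher and 5 lower by as much, and none of the 10 on the Y chromosome. Of the members, 193 had another cluster within 5000 bp, and in 126 of these (65.3%) the neighbour differed in the same direction, compared with 50.9% over all clusters and 55.3% over those of intermediate level. This was so for 114 of 170 higher members (67.1%) and for 12 of 23 lower ones (52.2%). Where that neighbour was itself of intermediate level, it was so in 53 of 66 higher (80.3%) and in 1 of 4 lower members (25%), compared with 57.0% over all clusters and 60.1% over those of intermediate level. The comparison shares pool clusters of both directions. Clusters of intermediate level were more often higher than lower in Ikaros, with a median of 1.55 points and quartiles of −0.322 and 4.34. The shares of the higher and of the lower members are therefore not set against like ones. Neighbouring clusters share the samples, and these shares were not tested.

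Some genes held several members. Every one of the 3 clusters of Zhx2, a zinc finger and homeobox repressor, was higher in Ikaros, over 2220 bp around its start. The levels were 20.6% ± 3.40 in Ikaros and 13.02% ± 2.68 in Control upstream (chr15:57693599-57694431), 21.7% ± 7.14 and 10.9% ± 2.80 over the start (chr15:57694552-57694965), and 53.3% ± 10.4 and 43.5% ± 9.06 over an inner start (chr15:57695477-57695818). All 3 clusters of Zswim5 were also higher, by 6.90, 16.4 and 6.67 points along 1383 bp of chromosome 4. They differed in level, from 52.9% ± 10.1 in Control at the start to 84.6% ± 6.78 in the coding exon 578 bp downstream. In Ablim1, which encodes an actin-binding LIM protein, the clusters at separate starts were higher by 7.54 and 14.2 points. In Atxn1 2 of 4 clusters were members, with 41.2% ± 3.79 against 22.4% ± 5.48 (chr13:45963503-45964502) and 72.4% ± 3.99 against 61.2% ± 4.15 (chr13:45965398-45966123).

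Agrn, the agrin gene, had 1 member of each direction. Its cluster 64 bp downstream of a start had 14.1% ± 4.04 in Ikaros and 8.82% ± 3.67 in Control, and the one 371 bp upstream had 42.1% ± 8.98 and 47.7% ± 13.1. The lower one was under the threshold, at −3.80 points, without Control 0 h replicate 1, its highest Control sample (77.7%). The gene model with the most members was Gm20388, with 8 of its 102 clusters, but this is a read-through model of 4434882 bp on chromosome 8 that spans many other genes. The 7 higher ones lay at Gse1 (5.21 and 14.0 points), 1190005I06Rik (9.46), Foxf1 (5.89), Spire2 (8.29), Tubb3 (9.19) and Dbndd1 (11.4), and the lower one at Galnt2 (−5.39, and −4.48 without Control 0 h replicate 1). In a run on chromosome 11 (chr11:97985943-98052944), 3 members with gaps of at most 50000 bp lay at Plxdc1, Cacnb1 and Stac2.

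Over all 9 gene lists, 23 of 647 clusters were members (3.55%), 21 higher and 2 lower, against 2.89% of all autosomal clusters. With so few members a list, nothing is read from the counts of single lists, and since 418 of the 473 members were higher, nothing is read from their direction. None of the 17 clusters of the list of pre-B receptor and B-lineage genes and none of the 29 clusters of the DNA methylation writers and erasers was a member, and the median levels of these lists were 0.692% and 0.912%, at the lower end of the scale. Among the 30 clusters of the Ikaros family and NuRD the only member (3.33%) was at the start of Ikzf3, the gene of the Ikaros relative Aiolos (chr11:98545724-98546059). Its level was 23.5%, 35.9% and 50.2% (lowest, median and highest) in Ikaros and 19.4%, 25.8% and 30.1% in Control. The means of 34.8% ± 6.26 (SD, n = 18) and 25.5% ± 2.96 (SD, n = 18) differed by 9.26 points, and 14 of the 18 Ikaros samples were above every Control sample.

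The Notch pathway had 4 members of 54 clusters (7.41%, against 2.89% of all autosomal clusters), all higher in Ikaros. They lay at Dtx4, a Deltex ubiquitin ligase (78.9% ± 7.33 against 69.9% ± 5.14, chr19:12501323-12502078), at Rfng, a Fringe glycosyltransferase (29.8% ± 5.00 against 22.5% ± 2.41, chr11:120783844-120784235), at Hey2, a Notch target of the bHLH family (85.8% ± 3.76 against 78.6% ± 3.75, chr10:30842358-30843296), and at the ligand gene Dll4 (5.38 points). In the list of signalling in B cells 3 of 93 clusters were members (3.23%), all at kinase genes and all higher. The cluster over the start of Camk4 (chr18:32938978-32939570) had 63.8% ± 6.73 (SD, n = 18) and 46.3% ± 4.95 (SD, n = 18), a difference of 17.5 points. That of Camk1d (chr2:5714258-5715251) rests on 128 complete positions and had 94.0% ± 1.14 and 83.2% ± 3.00, while that of Prkcb, a protein kinase C gene of B cell receptor signalling (chr7:122289304-122290005), had 92.7% ± 3.96 and 84.7% ± 5.23.

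In the list of the Myc network, glycolysis and cell cycle, 1 of 55 clusters was a member (1.82%, against 2.89% of all autosomal clusters). It lay in the UTR of Aldoa, which encodes a glycolytic aldolase (chr7:126808831-126809043), with 35.9% ± 9.63 in Ikaros and 23.8% ± 5.89 in Control. Members of the list of other blood lineages were 3 of 69 clusters (4.35%), at the transcription factor genes Tcf7 (5.85 points), Tbx21 (6.24) and Gfi1 (5.29). In the list of imprinted genes 3 of 41 were members (7.32%), at Gnas (6.23 points), Igf2 (5.28) and Phlda2 (6.72). The Phlda2 value rests on 1 complete position of 86, with 91.3% ± 6.65 and 84.6% ± 20.6, and was 2.30 points without Control 2 h replicate 3.

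Among the developmental transcription factors and Hox genes, 8 of 267 clusters were members (3.00%), 6 higher and 2 lower. The cluster upstream of Neurog3, a factor of endocrine pancreas, which also lies in an intron of Fam241b (chr10:62132787-62133009), had 83.8% ± 5.24 and 71.9% ± 6.14. Otx1 had a higher member 287 bp upstream of a start (79.6% ± 6.26 against 69.3% ± 7.07, chr11:22001997-22002213) and a lower one in a coding exon, which rests on 2 complete positions (90.9% ± 14.1 against 97.5% ± 4.56, chr11:21996786-21997151). In the lower one, Ikaros 24 h replicate 3 (53.7%) and Ikaros 6 h replicate 1 (55.6%) were far below the next Ikaros sample (83.95%). The other members were at Foxf1, Lhx1 (5.80 points), Lhx2 (5.92) and Pax7 (5.21), and lower at Hoxb8 (−5.23).

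At 0 h, 349 of the 473 members differed by 5 points or more in their own direction, 9 did so in the other direction, and 35 did not share the direction of the full set. Of all autosomal clusters 5.94% differed by as much in their own direction at 0 h, and 36.98% of those of intermediate level. The direction of the full set was shared at 0 h by 66.4% and 77.1%. Without Control 0 h replicate 1 the counts of members were 323, 17 and 50. The median over the higher members was 8.75 points at 0 h, and at 2, 6, 12, 18 and 24 h it was 7.94, 7.74, 8.65, 7.75 and 7.72 points. Without Control 0 h replicate 1 the first became 8.01, and without Control 24 h replicate 2 the last became 8.92. Over the lower members the medians were −9.67, −6.75, −5.58, −6.35, −6.04 and −4.87 points, and without the same samples the first became −7.34 and the last −7.35. The direction was the same at all 6 time points in 301 members, 283 of the higher (67.7%) and 18 of the lower (32.7%), and in 9.76% of all autosomal clusters and 25.99% of those of intermediate level. A difference of at least 5 points was kept at every time point by 97 higher and 3 lower members, and by 0.61% of all autosomal clusters and 5.33% of those of intermediate level. Time points of 3 samples each also make up the means that chose the members, so these counts are a description.

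**Figure D5:**
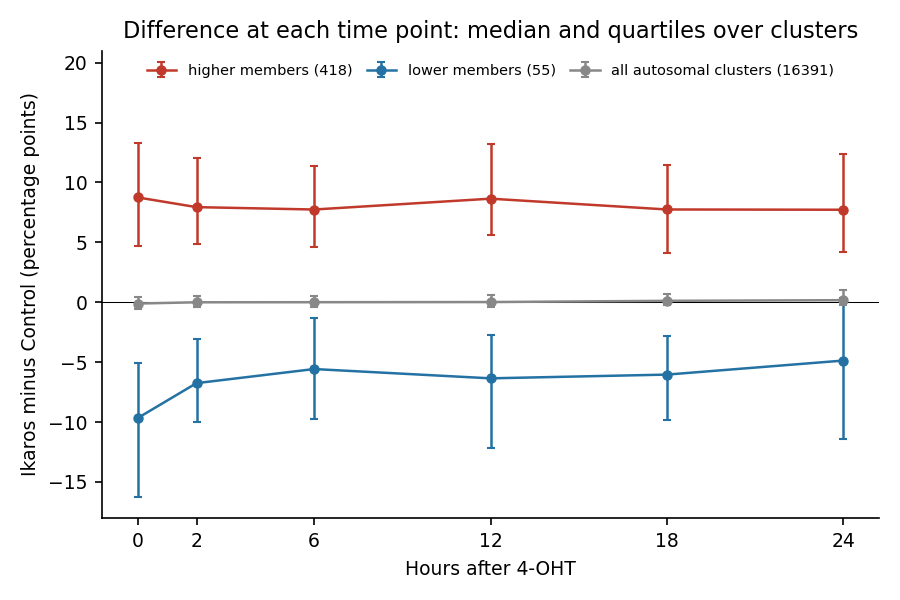
Ikaros minus Control (percentage points) at each time point after 4-OHT for the 418 higher members, the 55 lower members and all 16391 autosomal clusters. Points are medians and bars the quartiles over clusters. The median of the higher members stays between 7.72 and 8.75 points from 0 to 24 h, and that of the lower members between −9.67 and −4.87 points.

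In single clusters the difference at a time point rests on 3 samples of each series. At Ephb6 the difference was 38.4, 35.6, 27.4, 32.4, 31.3 and 29.2 points from 0 to 24 h, and at Camk4 14.8, 19.3, 14.97, 21.7, 15.1 and 19.2 points. At Bcr it went from −21.4 points at 0 h to 1.91 points at 24 h, where the Ikaros samples had 57.7%, 23.3% and 22.8%. Without the highest of these, 24 h replicate 1, the difference at 24 h was −9.65 points. Neurog3 and the higher cluster of Otx1 had 1.62 and 0.704 points at 0 h and 18.6 and 9.60 points at 24 h, and their 0 h values could change sign when 1 sample was left out.

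Whether the levels changed steadily after 4-OHT does not depend on the rule and was tested across all 16734 clusters with complete values, by limma on the M-values with the hours as a number and Benjamini-Hochberg adjustment. In the Ikaros series no cluster passed an adjusted p of 0.05 (0%). At an unadjusted p under 0.05 were 1419 clusters (8.48%), among them 66 members (14.0%). In the Control series 1 cluster passed (0.00598%), the one at Irx2 (chr13:72628452-72629580, adjusted p = 0.0197), which was no member, and 901 clusters (5.38%) had an unadjusted p under 0.05, among them 42 members (8.88%). When the replicate number was added as a block, the Control series had 0 such clusters. The slopes of the series differed in no cluster (0%), and 1556 clusters (9.3%) had an unadjusted p under 0.05, among them 53 members (11.2%). The smallest adjusted p of a member was 0.352 for Ikaros, 0.424 for Control and 0.214 for the difference in slope (limma).

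The fitted slopes of the members went both ways. The higher members had a median slope of 1.23 points per 24 h in Ikaros and 1.58 points in Control, and the lower members −0.713 and −2.25 points. The slope in Ikaros minus that in Control had quartiles of −4.79 and 3.95 points per 24 h over the higher members (−35.7 to 38.8) and of −2.23 and 8.86 points over the lower ones (−33.2 to 21.9). Over all autosomal clusters the median slopes were 0.128 points in Ikaros and −0.111 points in Control. Control 0 h replicate 1 and Control 24 h replicate 2, which stood apart, lie at the ends of the time axis. On the M-values the median Control slope was 0.00591 per hour over the higher members and −0.0161 over the lower ones. Leaving out 1 replicate number gave 0.00288 to 0.00819 and −0.0220 to −0.00738. Among the named clusters the adjusted p of the slope difference was 0.744 at Ephb6, where the slopes were 5.11 points in Ikaros and 11.6 points in Control, and 0.304 at Bcr, with 11.8 and −10.1 points (limma, Benjamini-Hochberg).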

How the data were processed

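RRBS was measured in 36 samples of B3 cells. Reads were trimmed by the authors and aligned to GRCm38 with Bismark 0.10.1, coverage was capped at its 95% quantile, and levels were smoothed within CpG clusters (BiSeq, bandwidth 80 bp). The authors deposited the smoothed levels as a fraction from 0 to 1 and M-values on a log2 scale, from levels limited to 0.01 to 0.99. Neither table gives coverage, so the depth is unknown, and precision is given by the spread between samples.

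Groups, replicates and batches came from the labels. The numbers of replicates 1 and 3 mark batches in them, but same-numbered samples of the series did not deviate together (r from −0.069 to 0.0414 over 18 pairs). Levels were computed as percent with Python 3.11.15, numpy 2.4.6 and pandas 2.3.3. Locations used GENCODE M21, and bases were read from the RefSeq genome of the same build. Slopes over hours were tested with limma 3.58.1 in R 4.3.3 on cluster means of the M-values, after a test on simulated data. The members, gene lists and rules were chosen with earlier results of these data known. Named clusters were the 8 largest differences and the 4 largest at promoters in each direction, the 12 largest of genes on the lists, the 6 genes with most members, and the 2 clusters on each side of the threshold. Replicates are batches of 1 cell line. The main slope fits hold no batch term and treat the samples as independent. Their p-values measure the scatter of single samples around a straight line in hours. Alternatives were other cluster means, gaps and thresholds, blocks, and samples left out. A named cluster is not reported here.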

Additional observations from a re-analysis of the deposited data

Results flagged for a closer look

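In 3 named clusters every Ikaros replicate number moved one way from 0 to 24 h and every Control one the other. They were picked for this pattern among the named clusters, 53 of which are members. The share of all autosomal clusters that shows it is not known, so nothing is read from the number of such clusters. The 24 h samples were compared with the 0 h samples of the same replicate number, and for replicate 2 these are of different batches, batch 2 at 0 h and batch 3 at 24 h. At Qrfp the mean change was 6.86 points in Ikaros (1.18 to 16.1 over the replicates) and −17.2 points in Control (−23.4 to −13.4), which differ by 24.1 points. The test of the difference in slope over hours gave an adjusted p of 0.402 (limma, Benjamini-Hochberg; unadjusted 0.0116). At Dtx4 the change was 10.8 points in Ikaros and −4.80 points in Control, which differ by 15.6 points, and the test of the slopes gave an adjusted p of 0.644 (limma; unadjusted 0.134). At Rtn4rl2, just outside the threshold and so no member, the change was 20.3 points in Ikaros (14.8 to 27.6) and −5.99 points in Control (−7.20 to −5.20), which differ by 26.3 points, and the test of the slopes gave an adjusted p of 0.512 (limma; unadjusted 0.0353). The 24 h to 0 h difference itself was not tested. The Control 24 h samples include replicate 2, which lay on the Ikaros side of the other Control samples in the members.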

How the results depend on the processing

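The cluster levels rest on smoothed values of unknown coverage, so the number of reads cannot set a limit here. Using all listed positions gave 444 members, 386 of them shared, the median over positions 538 (404 shared) and the median over samples 478 (380 shared). A threshold of 4 points gave 99 lower members and one of 6 points 32, while 10 points gave 119, 111 higher and 8 lower. From the 0 h samples alone, 3 in each series, 1098 clusters passed, 752 higher and 346 lower, and 358 of the 473 members were among them, 9 of these in the other direction. Leaving out a sample or a replicate number gave 460 to 600 members, 408 to 505 higher and 49 to 95 lower, with 95 without replicate 2. Every replicate number and time point has 1 sample of each series. The mean of differences within pairs therefore equals the difference of the series means. Its count of 473 was fixed in advance and says nothing about pairing. In the Control slope test 0 clusters passed under 6 of the 7 other settings that keep every replicate, the replicate block among them, and 2 with the time point as a factor; leaving out samples gave 0 to 1. The slope difference gave 0 to 1 and the Ikaros slopes 0 throughout. The blocks changed no other call. Leaving out single samples within a time point was chosen after the values were seen. Of the named clusters, Phlda2 went to −0.0017 points, in effect no difference, with all listed positions and reversed to −6.87 at 0 h, Rtn4rl2 to −1.92 at 0 h and St6galnac6 to −0.873 with all listed positions. Of the other such values 149 moved by less than the spread between samples and 18 by more.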
